A study of Saccharomyces cerevisiae with 15 samples.

Results

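Budding yeast builds the small ribosomal subunit, the 40S subunit, with a large set of nucleolar assembly factors, and 33 genes for such factors were followed here through exposure to the rare earth elements lanthanum (La) and ytterbium (Yb). The 33 genes were found by systematic name among the 6600 gene rows of a table of normalized counts (gene counts divided by a size factor for each library). All 33 were present and passed the filter for testing, which asked for 10 normalized counts or more on average. They comprised 6 genes of the UTP-A complex, 6 of the UTP-B complex, 1 of the UTP-C complex, 3 of the MPP10 complex, 4 for proteins of the U3 small nucleolar ribonucleoprotein (snoRNP), 9 for other factors of the small-subunit processome and 4 for factors that act later on the 40S precursor. RNA was sequenced from 15 libraries of Saccharomyces cerevisiae strain BY4741, a laboratory haploid of mating type a that lacks URA3, LEU2 and MET17 (the gene also known as MET15). All cells were grown in yeast nitrogen base medium with β-glycerophosphate. The 5 groups of 3 libraries were La at 50 µM, which the labels call the EC10 (the concentration with 10% effect), La at 160 µM (the EC50, with 50% effect), Yb at 6 µM (EC10), Yb at 8 µM (EC50), each for 1 h, and untreated control cells. No label states that the libraries were grown as separate cultures, and the p-values here therefore cover only the variation seen among these libraries, part of which could be technical.

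The small-subunit processome forms around the nascent ribosomal RNA precursor while RNA polymerase I is still transcribing it. UTP-A binds the leading spacer first, UTP-B follows and receives the U3 snoRNP, and U3 base-pairs with the precursor to guide the cuts that release the small-subunit rRNA. Later factors stay with the particle on its way to the cytoplasm. In yeast the genes for these factors belong to the ribosome biogenesis regulon, whose promoters commonly hold 2 short sequences: PAC, bound by the repressors Tod6 and Dot6, and RRPE, bound by Stb3. The regulon is known for falling and rising with growth rate, nutrient supply and stress through the TOR and protein kinase A pathways.

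The promoter sequences of 6 of the 33 genes show how these elements sit next to each other. Each is the stretch from base 250 to base 51 before the start codon in build R64 of the RefSeq genome, written 5′ to 3′ on the coding strand, with the cores GATGAG (PAC) and AAAATTTT (RRPE) in capitals. They were taken, with values of all genes known, as the 6 with the deepest falls at Yb EC50 among the 16 genes that are described library by library below and hold both cores.
ENP1: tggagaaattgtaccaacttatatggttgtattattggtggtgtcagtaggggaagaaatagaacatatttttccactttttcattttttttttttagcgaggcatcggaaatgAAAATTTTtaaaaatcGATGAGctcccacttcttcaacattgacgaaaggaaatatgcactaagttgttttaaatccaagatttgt
NOP14: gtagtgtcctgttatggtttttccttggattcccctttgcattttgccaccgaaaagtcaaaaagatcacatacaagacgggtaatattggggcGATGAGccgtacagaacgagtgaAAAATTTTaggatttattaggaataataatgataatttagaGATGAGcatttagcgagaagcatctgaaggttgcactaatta
UTP6: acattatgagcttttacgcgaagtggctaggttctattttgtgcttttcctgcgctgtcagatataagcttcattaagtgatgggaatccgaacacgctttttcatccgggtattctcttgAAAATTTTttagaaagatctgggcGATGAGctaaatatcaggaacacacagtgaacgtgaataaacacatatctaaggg
UTP14: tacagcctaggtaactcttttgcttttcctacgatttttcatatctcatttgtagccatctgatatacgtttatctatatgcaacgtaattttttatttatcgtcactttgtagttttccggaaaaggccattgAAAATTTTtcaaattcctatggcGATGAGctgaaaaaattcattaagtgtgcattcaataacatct
LTV1: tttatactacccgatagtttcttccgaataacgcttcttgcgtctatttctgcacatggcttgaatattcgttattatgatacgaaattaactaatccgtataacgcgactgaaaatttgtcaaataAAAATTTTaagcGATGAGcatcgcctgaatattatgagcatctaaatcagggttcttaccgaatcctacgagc
MPP10: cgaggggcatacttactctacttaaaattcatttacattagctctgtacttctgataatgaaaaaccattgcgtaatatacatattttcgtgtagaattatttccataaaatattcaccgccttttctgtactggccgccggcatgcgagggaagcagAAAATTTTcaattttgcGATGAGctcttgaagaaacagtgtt
The windows lie at ENP1 chrII:714506-714705 on the minus strand, NOP14 chrIV:190637-190836 on the minus strand, UTP6 chrIV:1358953-1359152 on the minus strand, UTP14 chrXIII:82840-83039 on the plus strand, LTV1 chrXI:176531-176730 on the plus strand and MPP10 chrX:438615-438814 on the plus strand. The UTP14 window reaches into the coding region of its neighbour GIM5, since 240 bases separate GIM5 from UTP14. In 5 of the 6 windows RRPE lies farther from the gene than PAC, and NOP14 has PAC on both sides of its RRPE.

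Both cores were common among the 33 promoters. Within 250 bases before the start codon and on either strand, PAC was found in 30 of 33 genes (90.9%), against 16.6% of the 5487 promoters searched over all tested genes with an annotation. The RRPE core, which reads the same on both strands, was found in 28 of 33 (84.8%), against 9.15% of all promoters. Both stood together in 26 of 33 (78.8%), against 4.43% of all promoters. The letters of the cores do not let a PAC and an RRPE match overlap. The longer forms GCGATGAG and AAAAATTTT were found in 19 (57.6%) and 23 (69.7%) of the 33, against 4.17% and 7.27% of all promoters. The 42 PAC matches lay at a median of 107.5 bases before the start codon and the 36 RRPE matches at a median of 126. In the 26 genes with both cores the nearest pair was separated by 1 to 17 bases (median 8.5), and PAC was the nearer of the pair to the start codon in 19 of the 26. UTP4 and UTP15 held RRPE without PAC. UTP8, UTP18, IMP3 and RRP9 held PAC without RRPE, and UTP22 held neither. A match is a description of letters and shows no binding.

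**Figure D1:**
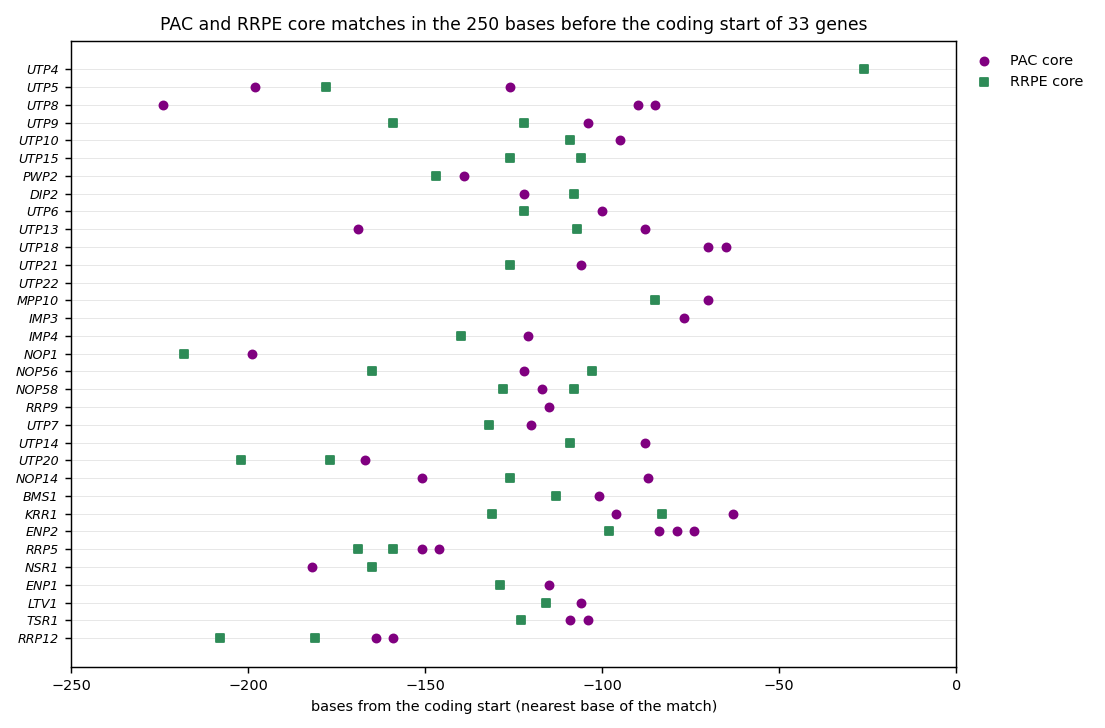
Positions of PAC (GATGAG) and RRPE (AAAATTTT) cores before the coding start of each of the 33 genes. The x axis is the distance from the start codon in bases, each row is 1 gene in the order of its role, and each mark is 1 match. In the 26 genes with both, the nearest pair is 1 to 17 bases apart.

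Sequencing depth was similar across the series. Whole reads could be recovered from the deposited values, which gave 5629666 to 7183175 reads per library. The genes deleted in the strain were at or near 0, with 0 reads of URA3 and MET17 and 1 read of LEU2 over all 15 libraries, while the mating type a gene STE2 had 3239 to 6129.8 normalized counts. Libraries are named by group and by the running number in the column names. Within groups, libraries 13 and 15 of La EC10 were the closest pair across genes (Pearson r = 0.995) and libraries 7 and 8 of Yb EC10 the most distant (r = 0.987), both correlations being across genes, which are not independent replicates.

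All 33 genes had lower mean levels in each of the 4 exposures than in control cells. The median log2 change, taken on normalized counts plus 1, was -0.37 at La EC10, -0.38 at La EC50, -0.44 at Yb EC10 and -0.38 at Yb EC50, which is 22.5%, 22.9%, 26.4% and 23.1% below control. Over all 5567 genes tested the corresponding medians were 0.01, 0.01, 0.00 and -0.02. A mean below control in all 4 exposures was found in 1777 of the 5567 genes (31.9%). Fewer copies per cell and a changed total of RNA per cell cannot be told apart in such bulk samples.

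At an adjusted p under 0.05 by limma, with Benjamini-Hochberg adjustment over the 5567 genes, 27 of the 33 genes were lower at La EC10, where 10.1% of all genes were called lower. At La EC50 the call covered 21 of 33, against 13% of all genes. At Yb EC10 it covered all 33, against 14%, and at Yb EC50 it covered 28, against 20.2%. No member was called higher in any exposure, where 10.2%, 12.6%, 15.2% and 20.6% of all genes were. Below, a gene is said to have fallen or risen in an exposure only where it was called lower or higher. A gene that was not called can still have a lower mean than control. All 3 exposed libraries lay below all 3 control libraries for 21 members at La EC10, 28 at La EC50, 31 at Yb EC10 and 28 at Yb EC50, where the background over all genes was 17.1%, 21%, 20.8% and 26.9%. The 4 exposures share the same 3 control libraries, so these counts are not independent of each other.

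Taken gene by gene, 18 of the 33 were called lower in all 4 exposures, against 5.21% of all genes tested. These were UTP8, UTP9, UTP10 and UTP15 of UTP-A, PWP2, DIP2, UTP13, UTP18 and UTP21 of UTP-B, UTP22, MPP10, IMP4, RRP9, UTP14, RRP5, ENP1, LTV1 and TSR1. UTP5, UTP6, IMP3, NOP56, NOP58, UTP20, NOP14, ENP2 and RRP12 were called in 3 exposures, and UTP4, NOP1, BMS1 and KRR1 in 2. UTP7 and NSR1 were called at Yb EC10 alone, with log2 changes of -0.41 and -0.62. The counts depended on single libraries. At La EC10 the count of 27 became 7 when control library 2 was left out, 9 for control library 3, 7 for La library 13 and 6 for La library 15. At La EC50 the 21 became 12 without control library 2 and 13 without La library 10. At Yb EC10 the 33 became 21 without control library 3, and at Yb EC50 the 28 became 17 without control library 3 and 13 without Yb library 4. Each of the 33 changes stayed below 0 in these fits.

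**Figure D2:**
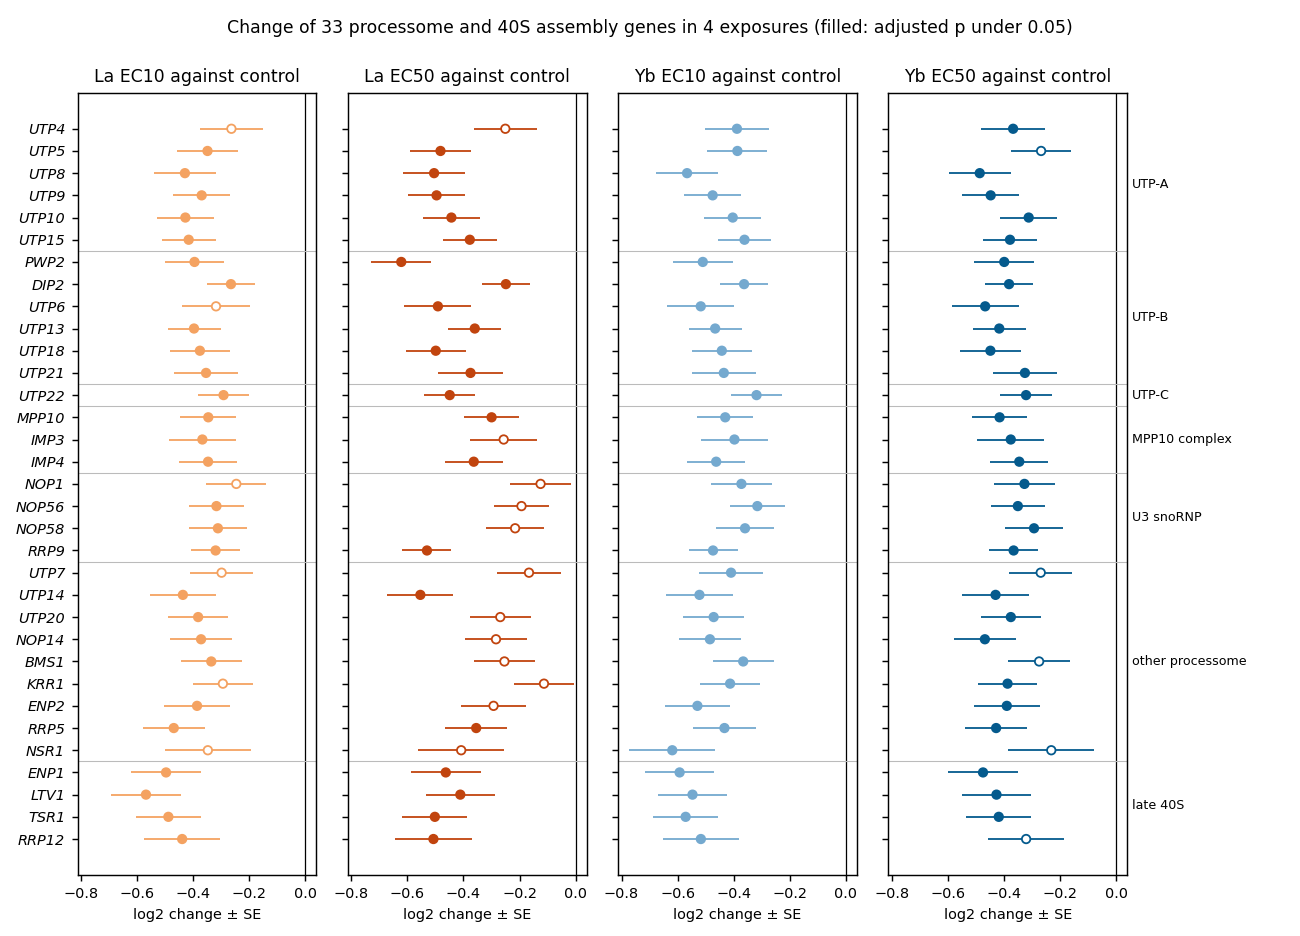
Log2 change of each of the 33 genes in the 4 exposures, in panels from La EC10 to Yb EC50, with genes grouped by role on the y axis. The x axis is the log2 difference from control in normalized counts plus 1, bars are the standard error of the limma fit, and filled points passed an adjusted p of 0.05. Every point lies below 0.

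UTP-A is the complex that reaches the ribosomal RNA precursor first. Its 6 genes fell in most exposures: 5 were called at La EC10, 5 at La EC50, 6 at Yb EC10 and 5 at Yb EC50, with median log2 changes of -0.39, -0.46, -0.40 and -0.37. UTP8 (YGR128C, chrVII:747950-750091, minus strand), whose product is also known for a part in tRNA export from the nucleus, had 813, 1090.4 and 871 normalized counts at La EC10, 862, 902 and 849 at La EC50, 799, 973 and 747 at Yb EC10 and 793, 971 and 891 at Yb EC50, against 1174, 1263 and 1273 in control. No exposed library reached the lowest control library. Its log2 change was -0.43 at La EC10, -0.50 at La EC50, -0.57 at Yb EC10 and -0.49 at Yb EC50 (SE 0.11, adjusted p = 0.013, 0.00354, 0.00156 and 0.0028, n = 3 each by limma). UTP5 (YDR398W, chrIV:1267471-1269402, plus strand) had 1013, 1252 and 1151 normalized counts at La EC10, 940.3, 1162 and 1014 at La EC50, 1161, 1176 and 989 at Yb EC10 and 1075, 1276 and 1263 at Yb EC50, against 1283, 1499 and 1571 in control. Its 4 exposed groups also lay wholly below control, and at Yb EC50 the difference of -0.27 missed the threshold (limma adjusted p = 0.0566). The WD-repeat protein gene UTP4 (YDR324C, chrIV:1114433-1116763, minus strand) had the smallest difference of the complex at both La doses, with 954, 1265 and 1037 normalized counts at La EC10, 1044, 1159.97 and 1063 at La EC50, 951, 1118 and 909 at Yb EC10 and 869, 1074 and 1083 at Yb EC50, against 1171, 1317 and 1407 in control. Its La EC10 library 14 stood inside the control range, and UTP4 was called in both Yb groups only (log2 change -0.39 and -0.37). UTP9, UTP10 and UTP15 fell in all 4 exposures, with log2 changes between -0.50 and -0.31.

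UTP-B, which helps dock U3 on the precursor, had all 6 genes called at La EC50 and in both Yb groups, and 5 at La EC10. PWP2 (YCR057C, chrIII:220457-223228, minus strand), a WD-repeat core subunit of UTP-B, had 869.8, 986 and 854 normalized counts at La EC10, 759.8, 832 and 723 at La EC50, 821, 931 and 754 at Yb EC10 and 759, 1004 and 954 at Yb EC50, against 1071, 1255 and 1241 in control. All 12 exposed libraries were below control, and the 3 La EC50 libraries included the lowest value of the 15. The log2 change of PWP2 at La EC50 was -0.62 (SE 0.11, limma adjusted p = 0.000564), the deepest fall of any member at that dose, against -0.40 at La EC10, -0.51 at Yb EC10 and -0.40 at Yb EC50. UTP6 (YDR449C, chrIV:1357580-1358902, minus strand) had 697, 829.6 and 663 normalized counts at La EC10, 592, 724 and 624 at La EC50, 603, 723 and 581 at Yb EC10 and 561, 743 and 676 at Yb EC50, against 813, 976 and 938 in control. It fell at La EC50 and in both Yb groups (log2 change -0.49, -0.52 and -0.47). La EC10 library 14 stood inside the control range, and the difference of -0.32 in that group was not called (limma adjusted p = 0.07). DIP2 (YLR129W, chrXII:399657-402488, plus strand) had 984, 1237 and 1084 normalized counts at La EC10, 1085, 1151 and 1094 at La EC50, 949, 1102 and 1031 at Yb EC10 and 933, 1062 and 1046 at Yb EC50, against 1232, 1373 and 1356 in control. DIP2 fell by 0.25 to 0.38 on the log2 scale, and of its exposed libraries La EC10 library 14 alone overlapped control. UTP21 (YLR409C, chrXII:934414-937233, minus strand) had 969, 1119 and 957 normalized counts at La EC10, 1005, 1048 and 944 at La EC50, 905, 1079.6 and 898 at Yb EC10 and 848, 1174 and 1107 at Yb EC50, against 1169, 1293 and 1435 in control. Its Yb EC50 library 5 stood just above the lowest control library, and all 4 differences were called. UTP13 fell in all 4 exposures, and so did UTP18, whose product is known for recruiting the RNA helicase of the nuclear exosome.

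UTP22 (YGR090W, chrVII:662358-666071, plus strand), which works with Rrp7 and casein kinase 2 in UTP-C, was the gene whose promoter held neither core. It had 1118, 1367 and 1133 normalized counts at La EC10, 1039, 1148 and 1047 at La EC50, 1078, 1288 and 1179.7 at Yb EC10 and 1071, 1204 and 1264 at Yb EC50, against 1368, 1487 and 1563 in control. The exposed libraries all lay below the control libraries, narrowly in the case of La EC10 library 14. UTP22 fell in all 4 exposures, with log2 changes of -0.29, -0.45, -0.32 and -0.32 (SE 0.09).

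The MPP10 complex, in which Imp3 and Imp4 promote the pairing of U3 with the precursor, had all 3 genes called in every exposure except IMP3 at La EC50. MPP10 (YJR002W, chrX:438865-440646, plus strand) had 989, 1201 and 975 normalized counts at La EC10, 1079, 1118 and 1058 at La EC50, 956, 1132 and 899 at Yb EC10 and 915, 1102 and 996 at Yb EC50, against 1222, 1365 and 1429 in control. IMP4 (YNL075W, chrXIV:485607-486479, plus strand) had 624, 785 and 655 normalized counts at La EC10, 663, 716 and 654 at La EC50, 597, 729 and 581 at Yb EC10 and 617, 764 and 684 at Yb EC50, against 813, 903 and 901 in control. IMP3 (YHR148W, chrVIII:393534-394085, plus strand), the gene with the fewest reads of the 33, had 346, 416 and 344 normalized counts at La EC10, 357, 416 and 421 at La EC50, 351, 409 and 325 at Yb EC10 and 308, 423 and 374 at Yb EC50, against 433, 511 and 483 in control. For all 3 genes every exposed library was below every control library. The log2 change of MPP10 was -0.35, -0.30, -0.43 and -0.42 in the 4 exposures in the same order, and that of IMP3 at La EC50 was -0.26 (SE 0.12, limma adjusted p = 0.13). IMP3 had 303 reads in its lowest library, where the counting error is 5.74%, and the other genes had more.

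Of the 4 genes for U3 snoRNP proteins, 3 fell at La EC10, 1 at La EC50, 4 at Yb EC10 and 4 at Yb EC50. RRP9 (YPR137W, chrXVI:802359-804080, plus strand), for the WD-repeat protein specific to U3, had 1003, 1107 and 910.01 normalized counts at La EC10, 837, 925 and 844 at La EC50, 925, 969 and 819.7 at Yb EC10 and 885, 1027 and 1013 at Yb EC50, against 1164, 1282 and 1320.3 in control. No exposed library reached the control range, and RRP9 was the only one of the 4 genes called at La EC50 (log2 change -0.53, SE 0.09, limma adjusted p = 0.000393). NOP1 (YDL014W, chrIV:427364-428347, plus strand), for the yeast fibrillarin that methylates ribosomal RNA, had 2973, 3617 and 2953 normalized counts at La EC10, 3418, 3630.4 and 3294 at La EC50, 2713, 3366 and 2675 at Yb EC10 and 2699, 3150.1 and 3161 at Yb EC50, against 3319, 4053 and 3943 in control. The La EC50 libraries of NOP1 mostly lay among the control libraries, with a log2 difference of -0.13 (adjusted p = 0.418), while it fell in both Yb groups (-0.37 and -0.33). NOP58 (YOR310C, chrXV:896825-898360, minus strand), for a scaffold protein of the box C/D snoRNPs, had 2659, 3246 and 2615 normalized counts at La EC10, 2956, 3187 and 2927 at La EC50, 2547, 3067 and 2618 at Yb EC10 and 2526, 3101 and 3002 at Yb EC50, against 3143, 3588 and 3832 in control. Its difference at La EC50 was -0.22 and that of its partner NOP56 was -0.19, neither of them called, and both genes fell in the other 3 exposures by 0.29 to 0.36. NOP1, NOP56 and NOP58 serve all box C/D snoRNPs and not U3 alone.

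Among the 9 other processome genes, 6 fell at La EC10, 2 at La EC50 (UTP14 and RRP5), 9 at Yb EC10 and 6 at Yb EC50. UTP14 (YML093W, chrXIII:83090-85789, plus strand), whose product activates an RNA helicase of the particle, had 1063, 1323 and 1064 normalized counts at La EC10, 951, 1173 and 1052 at La EC50, 1047, 1180.4 and 1015 at Yb EC10 and 983, 1252 and 1235 at Yb EC50, against 1349, 1619.99 and 1700.02 in control. Every exposed library was below control, and the La EC50 change of -0.55 (SE 0.12, limma adjusted p = 0.00308) was the largest of this group. KRR1 (YCL059C, chrIII:22429-23379, minus strand), for a protein with an RNA-binding KH domain, had 829, 1043 and 809 normalized counts at La EC10, 1009, 982 and 1029.6 at La EC50, 779, 936 and 750.03 at Yb EC10 and 789, 954 and 766 at Yb EC50, against 1028, 1160.2 and 1083 in control. Its La EC50 libraries were next to or inside the control range, and its log2 difference there was -0.11 (adjusted p = 0.461), the smallest of all 33, although it fell in both Yb groups (-0.41 and -0.39). NOP14 (YDL148C, chrIV:188154-190586, minus strand) had 891, 1107 and 825 normalized counts at La EC10, 979, 1006 and 993 at La EC50, 794, 962 and 843 at Yb EC10 and 761, 947 and 925 at Yb EC50, against 1088, 1272 and 1276 in control. NOP14 fell in both Yb groups, by 0.48 and 0.47, and at La EC10, by 0.37, whereas its difference at La EC50 (-0.28) was not called although all 3 libraries lay below control. NSR1 (YGR159C, chrVII:806412-807656, minus strand), the yeast nucleolin, had 4067, 5279.9 and 4093 normalized counts at La EC10, 3651, 5276 and 4027 at La EC50, 3749, 4261 and 3132 at Yb EC10 and 4088, 5401 and 5077 at Yb EC50, against 4949, 5797 and 6319.98 in control. Its libraries scattered most within groups, and only the Yb EC10 libraries all lay below control; the log2 change there was -0.62 (SE 0.15, adjusted p = 0.00765) against -0.23 at Yb EC50, which was not called. RRP5, needed for both ribosomal subunits, fell in all 4 exposures (-0.47, -0.35, -0.43 and -0.43). BMS1, a GTPase, was called at La EC10 and Yb EC10, and UTP20 and ENP2 in all but La EC50.

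The 4 genes for late factors had the deepest median falls of the role groups at La EC10 (-0.49), La EC50 (-0.48), Yb EC10 (-0.56) and Yb EC50 (-0.42). ENP1 (YBR247C, chrII:713004-714455, minus strand), for a factor that travels with the precursor out of the nucleus, had 589, 646 and 553 normalized counts at La EC10, 568, 618 and 643 at La EC50, 522, 673 and 491 at Yb EC10 and 496, 667 and 668 at Yb EC50, against 771, 896 and 859 in control. Its highest exposed library stood below the lowest control library. LTV1 (YKL143W, chrXI:176781-178172, plus strand), for a factor that must leave the precursor before the last cytoplasmic steps, had 467, 483 and 398 normalized counts at La EC10, 469.7, 517 and 513 at La EC50, 439, 527 and 406 at Yb EC10 and 436, 565 and 489.5 at Yb EC50, against 563, 680.1 and 766 in control. Its libraries lay below control apart from Yb EC50 library 5, and its log2 change of -0.57 at La EC10 (SE 0.12, limma adjusted p = 0.00484) was the deepest of the 33 in that group. RRP12 (YPL012W, chrXVI:529723-533409, plus strand), for an export factor of both ribosomal subunits, had 1156, 1445 and 1059 normalized counts at La EC10, 1073, 1295 and 1105 at La EC50, 1087, 1316 and 1052 at Yb EC10 and 1116, 1478 and 1372 at Yb EC50, against 1387, 1752 and 1816 in control. It fell in both La groups and at Yb EC10, and the difference of -0.32 at Yb EC50 was not called (adjusted p = 0.0715). La EC10 library 14 and Yb EC50 library 5 stood inside the control range. TSR1, for a GTPase-like protein, fell in all 4 exposures by 0.42 to 0.57. The ordering of role groups is a description and was not tested.

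**Figure D3:**
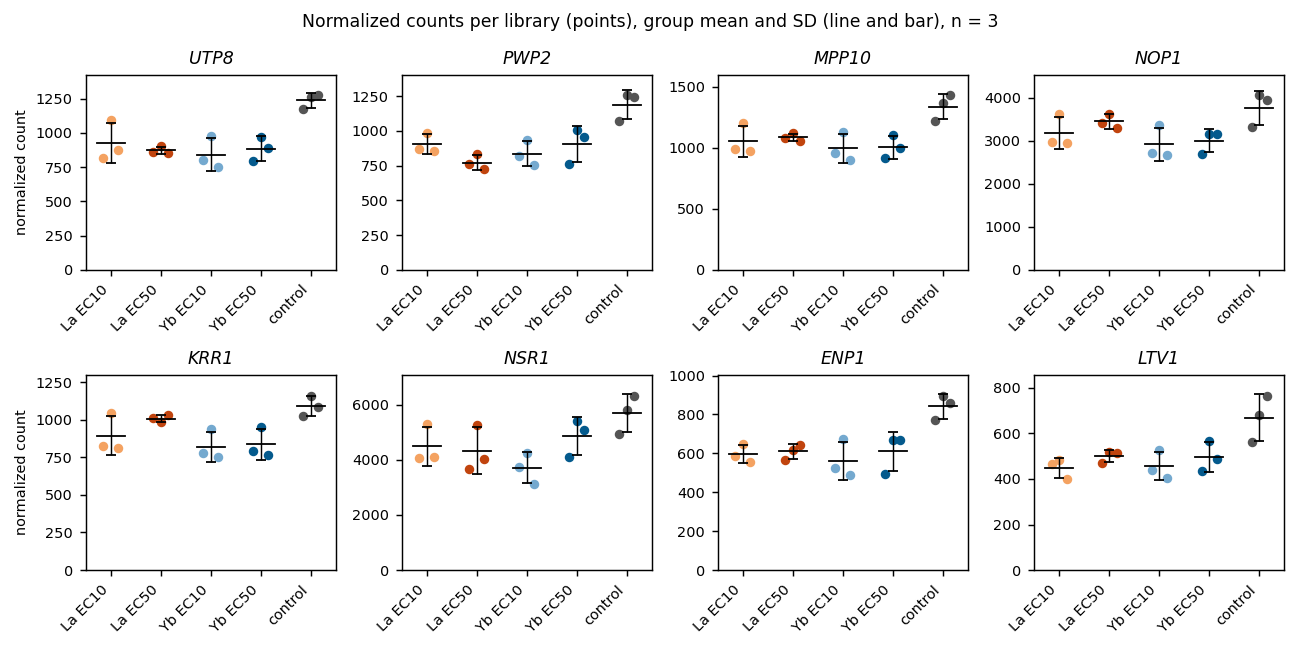
Normalized counts of 8 genes (UTP8, PWP2, MPP10, NOP1, KRR1, NSR1, ENP1 and LTV1) in the 15 libraries. The x axis gives La EC10, La EC50, Yb EC10, Yb EC50 and control, points are libraries, and lines with bars are the mean and SD of 3 libraries. The exposed libraries of ENP1 lie at or below 673, under the control minimum of 771, whereas the La EC50 libraries of KRR1 and NOP1 overlap control.

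Between genes, levels were compared per kilobase of coding sequence. In control cells NSR1 had the highest level (4569 normalized counts per kilobase), followed by NOP1 (3833), NOP56 (2566), NOP58 (2292) and KRR1 (1146), and UTP20 had the lowest (117). Over the 33 genes, Spearman's rho between log2 change and level per kilobase was 0.43 at La EC10, 0.18 at La EC50, 0.13 at Yb EC10 and 0.06 at Yb EC50, as a description across genes of the same libraries. The level in this correlation was the mean over all 15 libraries, not the control level, so it shares the exposed libraries with the change. The genes are longer than most, with a median coding length of 1932 bases against 1251 over the tested genes with an annotation. In the RefSeq annotation all 33 are single-exon genes, and none overlaps another gene. Only 5917 of the 6600 identifiers matched that annotation, and overlaps with the other entries were not checked.

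The spread of the changes among members was widest at La EC50. The SD of the 33 log2 changes was 0.13 at La EC50, against 0.07 at La EC10, 0.08 at Yb EC10 and 0.07 at Yb EC50. The median standard error of a single change was 0.11. That error includes differences between libraries that the 33 genes share, so it is no yardstick for the spread across genes. To look at this spread without the common fall, each gene was set against the mean of the 33 in the same library, a measure chosen after the values were seen and given here without a test. On that scale, with the control mean at 0, genes whose La EC50 libraries all lay above control included NOP1 (0.20 to 0.30 in log2 at La EC50, against -0.04 to 0.05 in control), KRR1 (0.14 to 0.32, against -0.09 to 0.06), UTP7 (0.18 to 0.23, against -0.04 to 0.04), NOP56 (0.14 to 0.20, against -0.04 to 0.04) and NOP58 (0.12 to 0.19, against -0.02 to 0.04). Those that lay below included PWP2 (-0.33 to -0.21, against -0.02 to 0.03), UTP14 (-0.27 to -0.11, against -0.06 to 0.05) and RRP9 (-0.18 to -0.15, against -0.02 to 0.03). Against control, those 3 genes were called lower at La EC50 and none of those 5 was. DIP2 (0.09 to 0.15) and MPP10 (0.03 to 0.13) also lay above control on this scale, yet both were called lower at La EC50. The scale restates each gene's change relative to the mean change and is no separate evidence. The other exposures also held genes outside the control range on this scale. NOP58 lay above it in all of them (La EC10 0.05 to 0.07, Yb EC10 0.06 to 0.14, Yb EC50 0.07 to 0.09, against -0.02 to 0.04 in control), and UTP8 lay below it in both Yb groups (Yb EC10 -0.17 to -0.07, Yb EC50 -0.16 to -0.08, against -0.04 to 0.07 in control).

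The mean level of the 33 genes differed between libraries of the same group. Their mean log2 deviation from each gene's mean over the series was -0.14, 0.13 and -0.16 in La EC10 libraries 13, 14 and 15, -0.12, 0.03 and -0.07 in La EC50 libraries 10, 11 and 12, -0.21, 0.04 and -0.25 in Yb EC10 libraries 7, 8 and 9, and -0.25, 0.07 and 0.00 in Yb EC50 libraries 4, 5 and 6, against 0.17, 0.37 and 0.40 in control libraries 1, 2 and 3. Control library 1 was the lowest of its group, and La EC10 library 14 came closest to it from below. In each exposed library, between 21 (La EC10 library 14) and 33 of the 33 genes were under their lowest control value, where 31.6% to 39.6% of all 5567 genes were. Libraries 14, 11, 8 and 5 were the highest of their groups, and each is the middle column of its group in the deposited table. Nothing in the labels ties column order to a batch.

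A list of 20 general stress genes, such as those for heat shock protein Hsp12 and catalase T, was read beside them. Its mean log2 deviation was -0.19, -0.59 and -0.12 at La EC10, -0.67, -0.72 and -0.64 at La EC50, 0.97, 0.07 and 0.77 at Yb EC10 and 1.45, 0.97 and 1.03 at Yb EC50, against -0.55, -0.94 and -0.84 in control, in the same library order. Of the 20 genes, 6 were called higher at La EC10, 3 at La EC50 (TPS2, GSY1 and HXK1, with HSP26, SSA4 and HSP104 called lower), 18 at Yb EC10 and 18 at Yb EC50. Of all genes, 10.2%, 12.6%, 15.2% and 20.6% were called higher in these exposures, and 13% were called lower at La EC50. In every exposure group the library with the highest level of the 33 assembly genes had the lowest level of the stress genes. Among the control libraries, library 2, also a middle column, had the lowest level of the stress genes. At La EC50 the mean of the assembly genes lay below all control libraries, and the mean of the stress genes lay within the control range of -0.94 to -0.55 in all 3 libraries. The stress genes moved in both directions there. Their log2 changes ran from -1.29 to 0.93 with a median of 0.18, and 6 of the 20 were below 0. The part of the stress genes in the result was not tested.

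**Figure D4:**
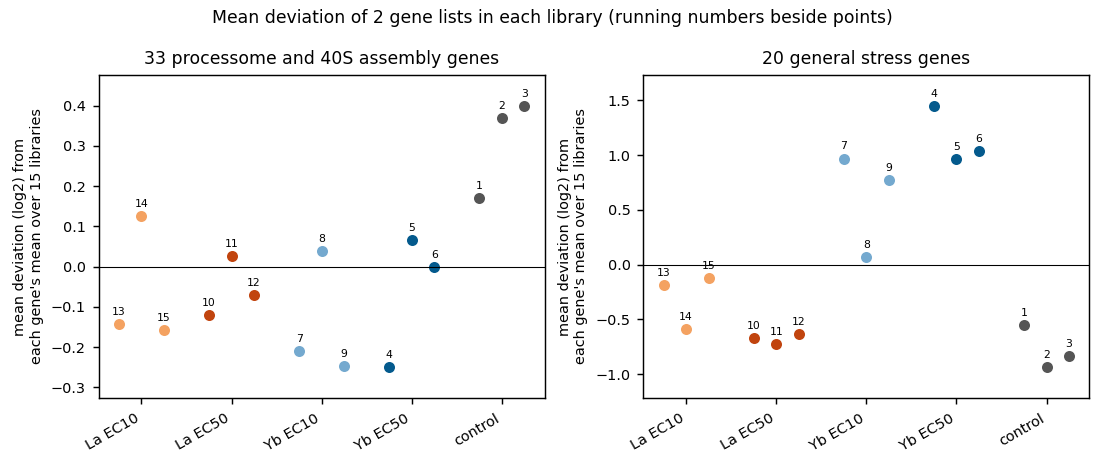
Mean log2 deviation of the 33 assembly genes and of 20 general stress genes in each of the 15 libraries, as log2 of normalized counts plus 1 minus each gene's mean over the series. Points are libraries, labelled by running number, and groups run from La EC10 to control. The assembly genes are highest in the 3 control libraries (0.17 to 0.40), and the stress genes lie at 0.97 to 1.45 in the Yb EC50 libraries, against -0.94 to -0.55 in control.

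The higher dose was then compared with the lower dose of each metal, and La with Yb at the same effect level, at doses that differ in concentration. No member was called in any of these comparisons by limma, where 1.78% of all genes were called between the La doses, 1.1% between the Yb doses, 5.89% between La and Yb at EC10 and 22% at EC50. At an unadjusted p under 0.05 there were 1, 1, 0 and 1 members (RRP9, NSR1, none and KRR1). On recovered reads, edgeR and DESeq2 also called none, with 2, 1, 0 and 2 members at an unadjusted p under 0.05 by edgeR and 1, 1, 0 and 1 by DESeq2. The median difference over the 33 genes was 0.02 between La EC50 and La EC10, 0.08 between Yb EC50 and Yb EC10, 0.08 between La EC10 and Yb EC10 and 0.01 between La EC50 and Yb EC50, all in log2.

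These comparisons leave room for moderate differences. The 95% interval of a single gene's difference reached a median of 0.23 in log2 to either side. Over the 33 genes the intervals reached from -0.45 to 0.42 between the La doses and from -0.50 to 0.50 between La EC50 and Yb EC50. They reached from -0.24 to 0.72 between the Yb doses and from -0.28 to 0.60 between La EC10 and Yb EC10. In these last comparisons 28 of the 33 differences were above 0, against 18 in each of the former. The genes share libraries, so such counts are not independent evidence. RRP9 differed by -0.21 between La EC50 and La EC10 (95% interval -0.40 to -0.02, limma adjusted p = 0.269), with mean levels of 868 ± 48.9 normalized counts at La EC50 and 1007 ± 98.6 at La EC10 (SD, n = 3 each). NSR1 differed by 0.39 between Yb EC50 and Yb EC10 (0.06 to 0.72, limma adjusted p = 0.181), with 4856 ± 684 normalized counts at Yb EC50 and 3714 ± 565 at Yb EC10. KRR1 differed by 0.27 between La EC50 and Yb EC50 (0.05 to 0.50, limma adjusted p = 0.0792), with 1007 ± 23.8 normalized counts at La EC50 and 836 ± 102 at Yb EC50. KRR1 passed the threshold when only the groups compared were fitted. The step from EC10 to EC50 was also compared between the metals, and again no member was called, against 3.25% of all genes. PWP2 and RRP9 had the only unadjusted p under 0.05, with differences of -0.34 (95% interval -0.66 to -0.02) and -0.32 (-0.58 to -0.06) between the La step and the Yb step. A moderated F test over the 5 groups called 28 of the 33, against 43.1% of all genes, and 9 without control library 2 or 8 without control library 3.

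Other genes of the pathway were read from fixed lists. Over all genes tested, 10.1%, 13%, 14% and 20.2% were called lower in the 4 exposures, from La EC10 to Yb EC50. Of 48 further processome and 40S assembly genes, 20 fell at La EC10, 30 at La EC50, 39 at Yb EC10 and 41 at Yb EC50, and none rose. HCA4, for an RNA helicase that frees snoRNAs from the precursor and is also called Dbp4, fell in all 4 exposures (log2 change -0.53, -0.60, -0.64 and -0.38). FAF1, for a 40S assembly factor, fell likewise (-0.63, -0.57, -0.72 and -0.56), and FAL1, for an RNA helicase related to a translation initiation factor, fell in all but La EC10 (-0.59, -0.75 and -0.60). TSR2, for the escort of ribosomal protein eS26, fell at Yb EC50 (-0.62). EFG1, another factor of small-subunit rRNA processing, stood apart, with 574 ± 191 normalized counts at Yb EC50, against 1692 ± 429 in control (SD, n = 3 each, log2 change -1.57, limma adjusted p = 0.002), and was not called in the other 3 exposures.

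Lists for 60S subunit assembly (62 genes) and for 40S ribosomal proteins (56 genes) were read next. The 60S assembly genes fell in numbers of 37, 38, 59 and 55 of 62 in the 4 exposures, from La EC10 to Yb EC50, with median log2 changes of -0.37, -0.35, -0.47 and -0.40, close to those of the 33 genes. Of the 40S ribosomal protein genes 31, 40, 20 and 55 of 56 were called lower, with medians of -0.30, -0.38, -0.22 and -0.45. Of all genes tested, 10.1%, 13%, 14% and 20.2% were called lower. Called or not, 56, 56, 55 and 56 of the 40S ribosomal protein genes had a log2 change below 0. At Yb EC10 the 33 assembly genes were all called while 36 of the 56 ribosomal protein genes were not, and at Yb EC50 28 of 33 and 55 of 56 were called. Whether the lists differ was not tested. Many ribosomal protein genes are near-identical pairs, whose counts could be split between copies. In promoters, both cores stood together in 42 of the 62 60S assembly genes and in 0 of the 56 ribosomal protein genes. The count was 26 of the 33 assembly genes, and the share was 4.43% of all promoters.

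The machinery around the processome was read the same way. Of 16 genes of RNA polymerase I and its factors, 7, 5, 11 and 9 fell in the 4 exposures in the same order. These were 43.75%, 31.25%, 68.75% and 56.25%, against 10.1%, 13%, 14% and 20.2% of all genes. Among them were RPA190 and RPA135, the largest subunits (RPA190 with log2 changes of -0.47, -0.33, -0.45 and -0.43, RPA135 with -0.37, -0.37, -0.41 and -0.36). RPA34 and RPA43 fell at La EC10 and in both Yb groups, and RRN11, for a subunit of the core factor, at La EC50 and Yb EC10 (-0.46 and -0.54). HMO1, a high-mobility-group protein on rDNA and ribosomal protein genes, fell most at La EC50, with 1094 ± 6.54 normalized counts, against 1923 ± 68.2 in control (SD, n = 3 each, log2 change -0.81, limma adjusted p = 1.2e-07). Of 14 snoRNP assembly genes 5, 3, 6 and 7 fell (35.7%, 21.4%, 42.9% and 50%). At La EC50, where 13% of all genes fell, the median log2 change of the 14 was -0.12. In that exposure 1 of them rose, PIH1 (0.37), where 12.6% of all genes rose. SRP40, a Nopp140-like protein gene, fell in all 4 exposures (-0.55, -0.41, -0.43 and -0.40). SHQ1 and NAF1, for assembly factors of the box H/ACA snoRNPs, fell at La EC50 and Yb EC10, and SHQ1 at Yb EC50 too. NHP2 and NOP10, for core proteins of those snoRNPs, fell at La EC10 (-0.39 and -0.38) and at Yb EC50 (-0.55 and -0.79), whereas NOP10 differed by -0.02 at La EC50. NHP2 also fell at Yb EC10 (-0.40).

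Regulators of the regulon were read by their own transcript levels. Of 17 genes, 2, 5, 4 and 3 fell, and 1 rose at Yb EC50, where 20.6% of all genes rose. The shares that fell were 11.8%, 29.4%, 23.5% and 17.6%, against 10.1%, 13%, 14% and 20.2% of all genes. The gene that rose was STB3, for the RRPE-binding protein, with 465 ± 31.7 normalized counts at Yb EC50, against 389.8 ± 14.7 in control (SD, n = 3 each, log2 change 0.25, limma adjusted p = 0.0209). DOT6 and TOD6, for the PAC-binding repressors, fell at La EC50 (-0.51 and -0.42), and TOD6 also at Yb EC10 (-0.51). IFH1, for a coactivator of ribosomal protein genes whose own gene lies upstream of UTP13, fell in both La groups and at Yb EC10 (-0.33, -0.58 and -0.56). SCH9, for a kinase downstream of TOR, fell at La EC10 and Yb EC50 (-0.21 and -0.25), and RAP1, for a general regulatory factor, in all but La EC10 (-0.36, -0.19 and -0.24). FHL1, for the partner of Ifh1 at ribosomal protein genes, fell in those 3 exposures as well (-0.19, -0.21 and -0.22) and is named after its values were seen. Transcript levels do not show the activity of these proteins.

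**Figure D5:**
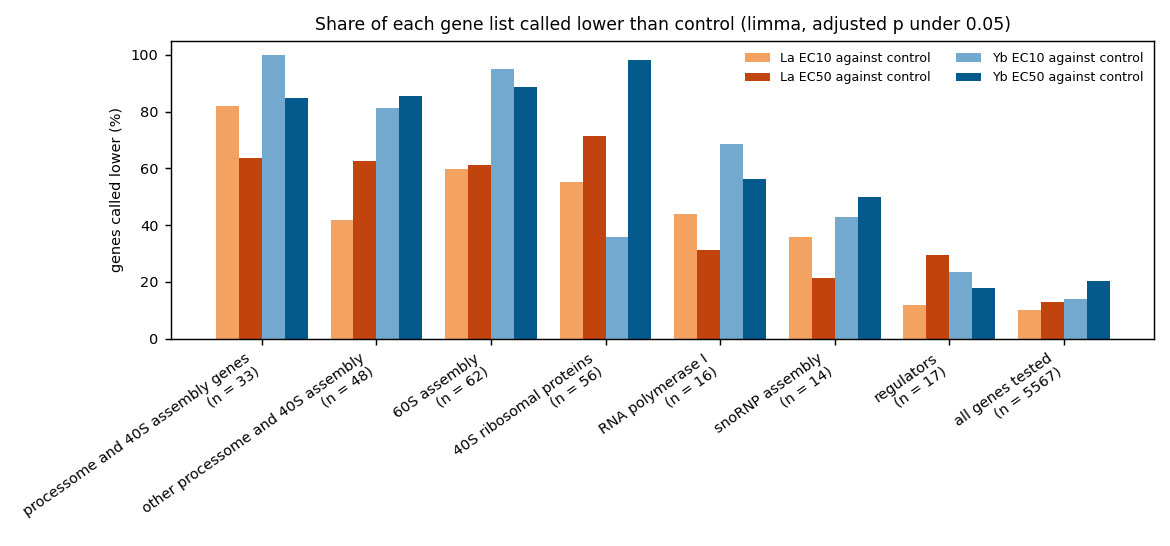
Share of each list called lower than control in the 4 exposures, for the 33 assembly genes, the other fixed lists and all 5567 genes tested. The y axis is the percent called at an adjusted p of 0.05 by limma, starting at 0. All 33 genes are called at Yb EC10, where 14% of all genes are.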

How the data were processed

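RNA from 15 yeast libraries was measured in 5 groups of 3. The authors deposited 1 table of signal per gene and library, gene counts divided by 1 size factor per library, as the values themselves show: 100% of them were multiples of a library's value of 1 read within a tolerance of 0.01. In libraries 10 and 13 a read is worth within 0.5% of 1 normalized count, so that whole multiples are weaker evidence of recovered reads there. The count-based alternatives use all 15 libraries. Per the submitters' processing notes, build R64 and the tools TopHat2 2.1.1, DESeq2 1.14.1, HTSeq 0.6.1p1 and FastQC 0.67 were involved, with no role, order or strand setting given. Strand-specific libraries were prepared, per the labels' protocols. The 5 deposited mean columns were not used.

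The log2 of the normalized count plus 1 was fitted with limma 3.58.1 (R 4.3.3), 1 coefficient per group over 15 libraries, with a mean-variance trend, for 5567 genes with a mean of at least 10. P-values are two-sided and Benjamini-Hochberg adjusted over these genes, with a threshold of 0.05. Fold changes on this scale are understated for low genes. An exact permutation test of 3 against 3 cannot go below 0.10 and was not used. The step was tested on simulated data. Alternatives were other pseudocounts (0.5 and 8), filters (none, a mean of at least 50), scalings (equal totals, quantile, edgeR's TMM), no trend, edgeR 4.0.16 and DESeq2 1.42.0 on recovered reads, the groups compared alone, and each library left out. No 2 libraries of a group agreed within sampling noise (chi-square per degree of freedom 2.92 to 27.1).

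The members and the lists were chosen with earlier results of these data known. Values in every library are given for the members with the largest and smallest change at each EC50 within a role, and other pathway genes are the up to 3 called genes of largest change per list and EC50. Coordinates and promoters come from the RefSeq annotation of R64 and are 1-based, and 5917 of 6600 identifiers matched. Motifs were searched 250 bases upstream of each start codon.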

Additional observations from a re-analysis of the deposited data

Results flagged for a closer look

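None of the 33 assembly genes was called between metals or dose steps by the test of the difference itself. Among the 213 other genes of the 6 ribosome lists, 24 were called between La EC50 and Yb EC50 (11.3%, against 22% of all genes), 2 between La EC10 and Yb EC10 (0.939%, against 5.89%) and 6 between the dose steps of La and Yb (2.82%, against 3.25%). Values follow for the 6 of these genes that are named above for their change at EC50. All values are log2 differences tested by limma within the fit of 15 libraries, adjusted over 5567 genes, with 3 libraries in each group. EFG1 was higher at La EC50 than at Yb EC50 by 1.73 (adjusted p = 0.00177), and its step from EC10 to EC50 differed between La and Yb by 1.88 (adjusted p = 0.0474). NOP10 was higher at La EC50 than at Yb EC50 by 0.77 (adjusted p = 0.000104), with a difference between the steps of 0.89 (adjusted p = 0.0105). HMO1 differed by -0.62 between La EC50 and Yb EC50 (adjusted p = 3.84e-06) and by -0.55 between the steps (adjusted p = 0.00773). IFH1 differed by -0.32 between La EC50 and Yb EC50 (adjusted p = 0.0323) and by -0.55 between the steps (adjusted p = 0.0487). DOT6 differed by -0.44 between La EC50 and Yb EC50 (adjusted p = 0.000584) and by -0.53 between the steps (adjusted p = 0.0199). RRN11 was higher at La EC10 than at Yb EC10 by 0.43 (adjusted p = 0.0411). These are descriptions of selected genes.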

How the results depend on the processing

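All 33 assembly genes stayed below control in all 4 exposures under every pseudocount, filter, scaling and tool tried and without any single library. The count of 27 called lower at La EC10 became 17 with libraries scaled to equal totals and 17 with quantile normalization, and the count of 28 at Yb EC50 became 15 with equal totals. Equal totals raised the median of all genes to 0.11 at La EC50 and 0.11 at Yb EC50, and all calls then split into 311 lower and 767 higher at La EC10 (otherwise 562 and 569), at La EC50 into 416 and 1195 (otherwise 722 and 703), at Yb EC10 into 454 and 1062 (otherwise 782 and 847) and at Yb EC50 into 472 and 1755 (otherwise 1126 and 1148). The members' medians were then -0.29, -0.27, -0.37 and -0.24. KRR1 was the 1 member called higher at La EC50 than at Yb EC50 when only the groups compared were fitted. Leaving out 1 library gave between 6 and 33 members lower at La EC10, between 12 and 26 for La EC50, between 21 and 33 for Yb EC10, between 13 and 32 for Yb EC50 and between 8 and 33 in the F test, and 0 to 1 higher and 0 to 1 lower between La EC50 and Yb EC50. The cause of these shifts was not tested. No paired analysis was possible because the column names carry no replicate number of the labels, and column order was not taken for one. With 5629666 to 7183175 reads per library, counting error was at most 5.74% for any member in a single library. The spread between libraries of a group came on top of that error.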

Other observations

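Promoters outside the 33 genes were grouped by the same motifs, as a description across genes of the same libraries. The 217 other genes with both the PAC and the RRPE core had median log2 changes of -0.29 at La EC10, -0.23 at La EC50, -0.35 at Yb EC10 and -0.32 at Yb EC50, and 38.2%, 35.02%, 64.1% and 65.4% of them were called lower. The 921 with a single kind of core had medians of -0.07, -0.05, -0.10 and -0.12, and the 4316 with neither had 0.03, 0.03, 0.03 and 0.02. Of the 921, 15.5%, 19.8%, 24.4% and 31.9% were called lower, and of the 4316, 7.14%, 10.2%, 8.85% and 15.2%. Over all genes tested these shares were 10.1%, 13%, 14% and 20.2%. Within the 33 genes, the 26 with both cores had medians of -0.36, -0.36, -0.46 and -0.38, the 6 with a single kind had -0.37, -0.44, -0.42 and -0.38, and UTP22, with neither core, changed by -0.29, -0.45, -0.32 and -0.32. Many of the 217 genes are themselves ribosome assembly genes, and neither motif was tested for a part in the changes.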
